A study of Mus musculus with 21 samples.

Results

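The 10 genes described here encode receptors of the TNF receptor superfamily, a decoy receptor among them, and other proteins linked to cell death under p53, the transcription factor encoded by Trp53. They were Fas, Tnfrsf10b, Tnfrsf23, Eda2r, Pidd1, Phlda3, Zmat3, Aen, Ei24 and Perp, chosen by name from 49980 genes placed on chromosomes by RefSeq, of which 21900 are protein-coding. All 10 are protein-coding. A peak belonged to a gene if it lay within 5 kb of the RefSeq gene span or, in the WT-specific list, carried the gene's name as its label. By this rule the genes held 2 of 9784 KO peaks, 13 of 6811 WT peaks and 11 of 2127 WT-specific peaks.

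The peaks came from CUT&RUN, in which an antibody directs a nuclease to cut out the DNA next to a chromatin protein in permeabilised cells. The cells were ID8, an immortalized epithelial line, untreated and growing asynchronously, from the ovarian surface of C57BL/6 mice. A p53 antibody was used on 2 samples with both Trp53 copies knocked out (KO, Trp53-/-) and on 2 with Trp53 intact (WT, Trp53+/+), and 1 peak list per genotype was used. The KO list is the background of the same antibody in cells with Trp53 knocked out, and the WT-specific list is the authors' selection of WT peaks. The sources used here do not say whether the KO cells are 1 clone, or whether the 2 samples of a genotype were separate cultures. Trp53 itself had no KO peak within 5 kb, against 1 WT peak that was also WT-specific. A peak list does not give the level of p53 or of any marker of the cell type, so neither was checked.

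Death receptors are cell surface proteins of the TNF receptor superfamily that, once bound by their ligands, recruit adaptors and initiator caspases through an intracellular death domain. The other arm of p53-driven death runs inside the cell, through proteins that open mitochondria, activate caspases, digest nucleic acid or dampen survival signalling. In both arms p53 binds a DNA element made of a pair of decamers, each called a half-site, near or inside the target gene. The 10 genes were grouped by role into 4 receptors (Fas, Tnfrsf10b, Tnfrsf23, Eda2r), 5 intracellular effectors (Pidd1, Phlda3, Zmat3, Aen, Ei24) and Perp, a tetraspan protein of the plasma membrane and of desmosomes, which stands alone.

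RefSeq promoter windows, which run from 250 bases before a gene's start to 50 after it (GRCm38.p6, the assembly that mm10 represents), were found for 7 of the 10 genes. Those of Tnfrsf10b, Zmat3 and Perp are not shown. A WT-specific peak overlapped the window of 4 genes, 1 of 3 receptors with a window and 3 of 4 effectors, and these 4 are printed because they carry the DNA under the peaks. Over all 27025 genes with a window in the table, 0.529% had one overlapped by a WT-specific peak, as did 0.496% of the 32851 windows. Capitals mark a match to the p53 half-site consensus with no mismatch. That pattern is its own reverse complement, so both strands were searched at once.
Eda2r, chrX:97377160-97377459, minus strand: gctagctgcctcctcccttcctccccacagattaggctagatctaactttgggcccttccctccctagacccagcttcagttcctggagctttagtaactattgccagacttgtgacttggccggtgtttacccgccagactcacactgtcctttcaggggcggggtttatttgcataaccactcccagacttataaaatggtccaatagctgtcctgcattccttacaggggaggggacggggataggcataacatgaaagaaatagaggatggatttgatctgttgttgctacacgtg
Phlda3, chr1:135765835-135766134, plus strand: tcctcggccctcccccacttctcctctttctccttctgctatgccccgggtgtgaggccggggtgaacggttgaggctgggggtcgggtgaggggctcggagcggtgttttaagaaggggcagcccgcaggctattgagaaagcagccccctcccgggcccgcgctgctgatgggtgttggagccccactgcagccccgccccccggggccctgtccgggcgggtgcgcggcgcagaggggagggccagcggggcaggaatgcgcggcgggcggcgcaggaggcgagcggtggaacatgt
Aen, chr7:78895808-78896107, plus strand: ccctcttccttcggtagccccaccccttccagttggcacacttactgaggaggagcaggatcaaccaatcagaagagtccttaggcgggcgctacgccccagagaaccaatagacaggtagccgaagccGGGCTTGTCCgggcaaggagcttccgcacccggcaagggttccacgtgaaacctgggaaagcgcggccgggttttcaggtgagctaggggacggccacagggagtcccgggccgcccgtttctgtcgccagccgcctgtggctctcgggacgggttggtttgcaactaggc
Ei24, chr9:36797285-36797584, minus strand: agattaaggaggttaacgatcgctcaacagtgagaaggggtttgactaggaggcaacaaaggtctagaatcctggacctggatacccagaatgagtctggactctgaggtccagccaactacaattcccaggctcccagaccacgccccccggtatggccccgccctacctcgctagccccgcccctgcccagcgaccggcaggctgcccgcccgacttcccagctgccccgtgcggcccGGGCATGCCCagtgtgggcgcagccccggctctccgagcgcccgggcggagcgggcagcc

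A half-site was found in the windows of 2 of the 7 genes, Aen and Ei24, both of them effectors, and in none of the 3 receptor windows. In Aen, the gene of a nuclease that enhances apoptosis, the match GGGCTTGTCC began 121 bases before the gene start used for the window shown, at chr7:78895937-78895946. RefSeq gives Aen a second start further upstream, and that start's window holds the same match. In Ei24, which encodes a membrane protein of the endoplasmic reticulum, the match GGGCATGCCC began 10 bases before the start, at chr9:36797335-36797344. Both matches lay inside the WT-specific peak of their gene. Of all windows, 8.36% held a half-site, and of the 163 windows under a WT-specific peak 20.2% did. With 1 mismatch allowed outside the C and G of the core, 5 of the 7 genes held a match, as did 50.9% of all windows. Windows cover only the DNA at the start, so peaks further inside a gene were not searched.

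The main contrast was between KO and WT lists. A KO peak lay at 2 of the 10 genes, against a WT peak at 8. Among all protein-coding genes the shares were 16.0% for KO peaks and 13.0% for WT peaks, so the KO count of the 10 genes was near its background and the WT count was well above it. A WT-specific peak lay at the same 8 genes, against 5.04% of protein-coding genes. Over all RefSeq genes the shares were 11.4% for KO, 9.05% for WT and 3.37% for WT-specific peaks. By role, a KO peak lay at 1 of 4 receptors and 1 of 5 effectors. A WT-specific peak lay at 3 of 4 receptors and at all 5 effectors. With only peaks at least as wide as the list's median, Fas, Tnfrsf10b and Pidd1 had none, leaving 1 of 4 receptors and 4 of 5 effectors. The share of all protein-coding genes under this width filter was not computed. Perp had no peak of any list. The genes were picked as known p53 targets, with earlier results of these data known. Each genotype has 1 list, so these counts are given without a test.

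**Figure D1:**
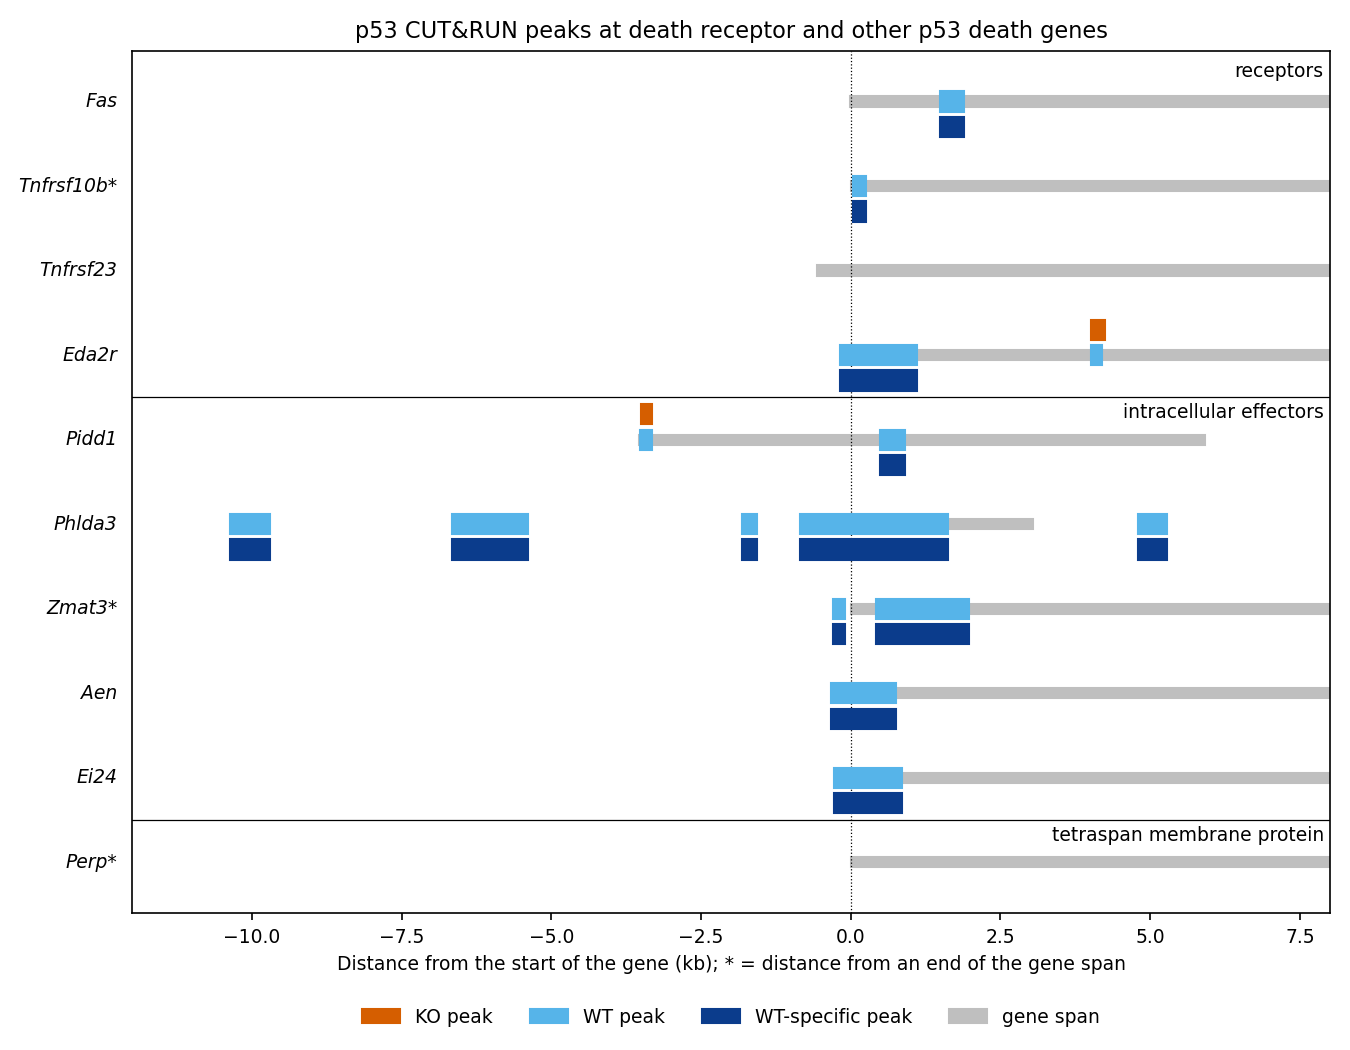
Peaks at each of the 10 genes, with distance in kb from the start of the gene in the direction of transcription; for genes marked * no start was used and distance runs from an end of the gene span (the lower end for Tnfrsf10b and Perp, the upper end for Zmat3). The start used for Pidd1 lies inside its gene span. The 2 KO peaks lie at Eda2r and Pidd1, each over a WT peak, and the 11 WT-specific peaks within 5 kb of the genes lie at 8 genes.

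Among the receptors, Fas, the receptor for Fas ligand (RefSeq gene 14102, chr19:34290647-34327775), had 1 WT-specific peak of 399 bp at chr19:34292149-34292547. It lay inside the gene, 1490 to 1888 bp after the start at position 34290659. The authors' annotation classed it as promoter and labelled it with Gm27818, not with Fas. Gm27818 was in the Ensembl name table and had no entry in RefSeq. From the Fas gene to the nearest KO peak was 334 kb. A fragment of 53 bp of the internal retroviral sequence RLTR14-int made up 13.3% of the peak.

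Tnfrsf10b, which encodes the mouse receptor for the death ligand TRAIL (gene 21933, chr14:69767472-69784411), had 1 WT-specific peak of 216 bp at chr14:69767510-69767725. It began 38 bp inside the lower end of the gene span and was classed as the gene's promoter, with no repeat. It was among the narrowest peaks of the list, in which 8.46% of peaks were narrower. The nearest KO peak, 28.5 kb beyond the other end of the gene, was overlapped by a WT peak. A noncoding RNA gene, 4930480K23Rik, ended 397 bp from the WT-specific peak.

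Eda2r, the gene of a receptor for ectodysplasin A2 (gene 245527, chrX:97333837-97377234), was the receptor with a wide peak. The WT-specific peak of 1282 bp at chrX:97376100-97377381 reached from 172 bp before the start to 1109 bp after it, and 96.9% of the list was narrower. It covered 222 of the 300 bases of the promoter window printed above and overlapped no repeat. Eda2r also had a KO peak of 247 bp at chrX:97372956-97373202, which lay over a WT peak of 198 bp, 4007 bp and more into the gene. This shared pair was outside the WT-specific list, and 2898 bp separated it from the WT-specific peak.

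Tnfrsf23, a mouse decoy receptor for TRAIL that lacks a death domain (gene 79201, chr7:143665807-143686436), was the receptor without a peak of any list. The nearest KO peak was 35.8 kb away, the nearest WT peak 146 kb and the nearest WT-specific peak 310 kb. The files hold no score and no read depth, so a weak contact below the authors' threshold would not be seen.

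Among the effectors, Pidd1 encodes the scaffold of the PIDDosome, which activates caspase-2 (gene 57913, chr7:141438113-141447565). Its WT-specific peak of 420 bp at chr7:141443116-141443535 was classed as promoter. It lay 490 to 909 bp after the RefSeq start at position 141444025, inside the gene, as did the Fas peak. Pidd1 is on the minus strand, so the upper end of its span is its 5′ end. The start used here lies inside the span. Measured from the upper end, the WT-specific peak lay 4030 bp or more inside the gene. A KO peak of 191 bp at chr7:141447339-141447529 overlapped a WT peak of 197 bp by 186 bp. That pair lay just inside the upper end of the Pidd1 span, by 25 bp or more in the WT list and 36 bp or more in the KO list. It was 3319 bp or more before the start used here in the WT list. Rplp2, the gene of a ribosomal protein, was 111 bp from it in the WT list. The pair was not in the WT-specific list.

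Phlda3, which encodes a small protein that restrains Akt signalling (gene 27280, chr1:135766085-135769134), had the most WT-specific peaks of the 10 genes, with 3. The widest, 2465 bp at chr1:135765243-135767707, reached from 842 bp before the start to 1622 bp after it and ranked 5 by width in the whole list. A second of 244 bp at chr1:135764273-135764516 was also classed as promoter, and an MIRc element, a SINE repeat, made up 77.9% of it. The third, 478 bp at chr1:135770887-135771364, lay 1753 bp beyond the far end of the gene and was labelled intergenic. Of protein-coding genes, 0.0822%, or 18 genes, had 3 or more WT-specific peaks within 5 kb or by label. Just outside the 5 kb limit, a WT-specific peak of 1275 bp ended 5391 bp before Phlda3, and another of 660 bp ended 9705 bp before it. Phlda3 thus had 5 WT-specific peaks within 15 kb, a number reached by 3 protein-coding genes (0.0137%). The nearest KO peak was 23.2 kb away and was overlapped by a WT peak.

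Zmat3, the gene of a zinc finger protein that binds RNA (gene 22401, chr3:32334792-32365665), had 2 WT-specific peaks, both classed as its promoter, where 0.543% of protein-coding genes had 2 or more. One of 1549 bp at chr3:32363689-32365237 lay inside the gene, 428 bp and more from its upper end. The other, of 216 bp at chr3:32365754-32365969, lay 89 bp outside that end and wholly within the span of the noncoding RNA gene 4930429B21Rik. No KO peak was closer than 131 kb. The narrow Zmat3 peak was as narrow as that of Tnfrsf10b, and the wide one exceeded 98.5% of the list.

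Aen (gene 68048, chr7:78895927-78911209) and Ei24 (gene 13663, chr9:36779153-36797334) were alike in having a single WT-specific peak across the start. The Aen peak of 1080 bp at chr7:78895727-78896806 reached from 331 bp before the start used above to 748 bp after it, and it overlapped the end of the noncoding RNA gene Gm39039 by 56 bp. The Ei24 peak of 1139 bp at chr9:36796480-36797618 reached from 284 bp before the start to 854 bp after it. Both peaks contained their gene's printed promoter window in full, and neither overlapped a repeat. KO peaks were 84.9 kb or more from Aen and 560 kb or more from Ei24.

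Perp (gene 64058, chr10:18845071-18857073), known as a p53 target in apoptosis and in epithelial adhesion, was farther from any peak than the other genes were from a WT peak. The nearest KO peak was 260 kb away, the nearest WT peak 270 kb and the nearest WT-specific peak 326 kb.

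The widths of receptor and effector peaks overlapped. The 3 WT-specific peaks at receptor genes were 216, 399 and 1282 bp wide, with a median of 399 bp, or 749 bp for the 2 that carried the gene's label. The 8 at effector genes ranged from 216 to 2465 bp, with a median of 779 bp, or 1080 bp for the 7 that carried the gene's label. The whole WT-specific list had a median of 454 bp, with a 95% order-statistic interval of 444 to 465 bp that covers counting error only. The difference between the receptor and effector medians was smaller than the range of widths within either group. Counted by gene, a WT-specific peak of at least 1000 bp lay at 1 of 4 receptors, Eda2r, and at 4 of 5 effectors, Phlda3, Zmat3, Aen and Ei24. In all, 5 of the 11 peaks were that wide, against 7.33% of the list and 14.5% of its 324 promoter peaks. The share of all protein-coding genes with a WT-specific peak this wide was not computed. The limit of 1000 bp was chosen after the widths were seen. At 1200 bp, Aen and Ei24 dropped out, leaving 1 of 4 receptors and 2 of 5 effectors. Pidd1 was the effector with only a narrow peak. Peak width can depend on read depth and on the caller's settings, which the sources used here do not give, and their part in these widths was not tested. With the WT list in place of the WT-specific list the medians were 307.5 bp at receptors and 478 bp at effectors.

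**Figure D2:**
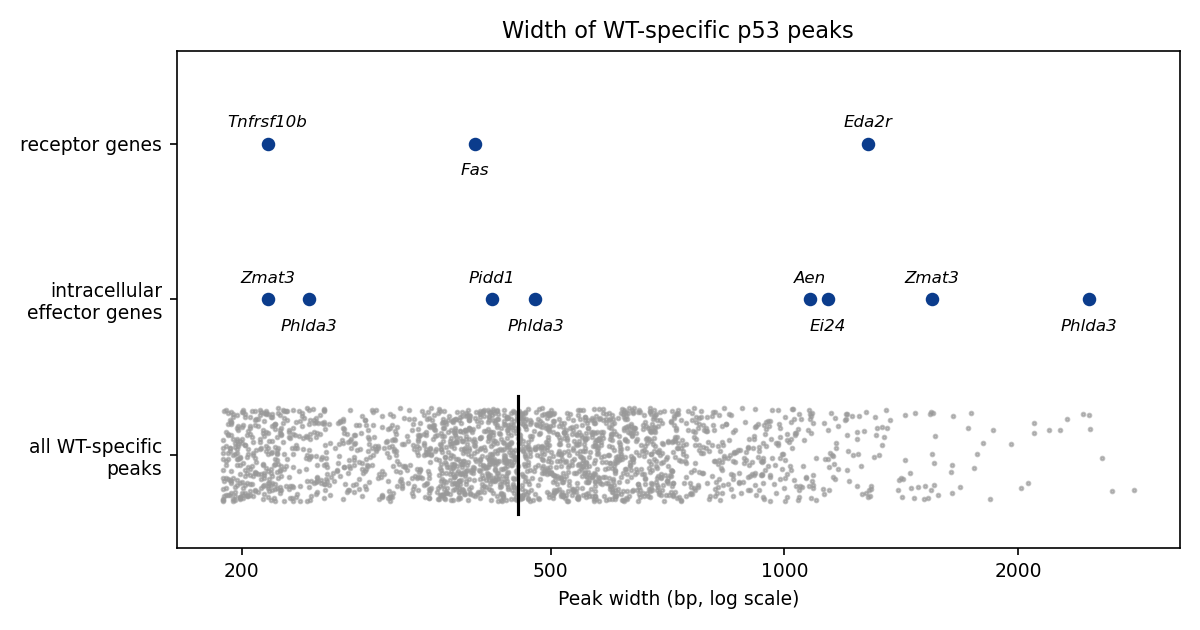
Width of each WT-specific peak at receptor genes (3 peaks) and intracellular effector genes (8 peaks), above all 2127 peaks of the list, in bp on a log scale; vertical spread of the grey points is for display only and the line is the median of 454 bp. Receptor peaks lie between 216 and 1282 bp and effector peaks between 216 and 2465 bp, and the groups overlap.

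Most peaks lay at the beginning of their gene. Of the 11 WT-specific peaks, 10 were classed as promoter by the authors, 3 of 3 at receptors and 7 of 8 at effectors, against 15.2% of the list. The class reached well beyond the start itself. A promoter window was overlapped by 4 of the 11 peaks, those of Eda2r, Phlda3, Aen and Ei24. Tnfrsf10b and Zmat3 have no window, so their peaks among the 11 could not be counted as overlapping one. By comparison, 6.38% of the WT-specific peaks on the chromosomes of the table and 37.5% of their promoter peaks overlapped a window. The peaks of Fas and Pidd1 lay wholly downstream of the start despite the promoter class, and the Pidd1 start is one inside its gene span. At each of the 6 genes that had both a start and a WT-specific peak, the midpoint of the peak nearest the start was downstream of it, by 1689 bp in Fas, 699.5 bp in Pidd1, 468.5 bp in Eda2r, 390 bp in Phlda3, 285 bp in Ei24 and 208.5 bp in Aen. The other promoter peak of Phlda3 went the other way, with its midpoint at -1690.5 bp, upstream of the start. Over the list, 217 promoter peaks (67.8%) had a midpoint within 2000 bp of the nearest start, and 56.7% of those midpoints were downstream. That share counts every such peak, not 1 per gene. The midpoint is not a measured summit.

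Repeats were sparse in the peaks within 5 kb of these genes. Of the 11 peaks, 2 overlapped a repeat, the RLTR14-int fragment at Fas and the MIRc element at Phlda3, so 1 of 3 receptor peaks and 1 of 8 effector peaks did. In the whole WT-specific list 67.9% of peaks overlapped a repeat, and among its promoter peaks 40.4% did. The Fas fragment was the single LTR-class repeat, a class found in 46.8% of the list. Just outside the 5 kb limit, the Phlda3 peaks of 660 bp and 1275 bp each overlapped a repeat, PB1D11 (a SINE) and MER5A (a DNA repeat).

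Most labels named the member gene. Of the 11 peaks, 9 carried the name of the member, the Fas peak carried Gm27818 and the distal Phlda3 peak was labelled intergenic. Across the list, 1054 WT-specific peaks lay within 5 kb of a protein-coding gene. Of these, 75.5% were labelled with such a gene, 131 peaks with another name and 127 peaks as intergenic. The 9 of 11 at the members was near that share. By label alone 7 of the 10 genes had a WT-specific peak, and Fas was the gene lost. The shared peaks at Eda2r and Pidd1 had no deposited label, since only WT-specific peaks were annotated.

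Each of the 11 WT-specific peaks was identical to a peak of the WT list, from which the authors selected them. None overlapped a KO peak, which is near the share of 3.34% in the whole WT-specific list. The other 2 of the 13 WT peaks did overlap one, where 59.4% of all WT peaks had a KO peak over them. Both KO peaks at the 10 genes were covered in part by a WT peak, against 41.0% of all KO peaks. No peak at these genes was found in KO cells alone. Widening the limit from the gene span itself to 20 kb left the counts at 2 genes with a KO peak and 8 with a WT or WT-specific peak. At 50 kb, a KO peak lay near 5 of the 10 genes, Tnfrsf10b, Tnfrsf23 and Phlda3 being added, while 36.5% of protein-coding genes had one.

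**Figure D3:**
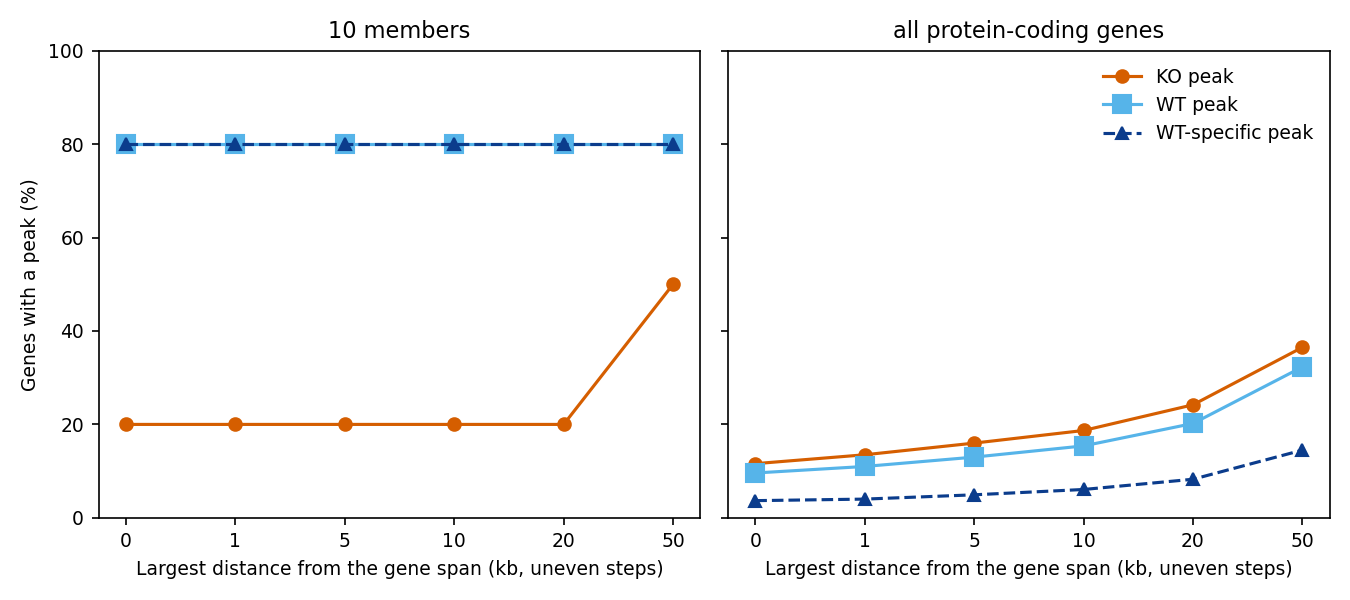
Share of the 10 genes and of all protein-coding genes with a KO, WT or WT-specific peak within 0 to 50 kb of the gene span, without labels; steps on the x axis are uneven. The KO line of the 10 genes stands for 2 genes up to 20 kb and 5 genes at 50 kb, against 11.6 to 36.5% of protein-coding genes, and their WT and WT-specific lines coincide at 8 genes.

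In each of 4 other lists of the pathway, the share of genes with a WT-specific peak was below that of the 10 genes. The 10 genes were picked as known p53 targets and the lists by pathway. Both were chosen with earlier results of these data known, so this order is a description only. Of 24 further TNF receptor superfamily genes, 6 had a KO peak, where 16.0% of protein-coding genes had one. A WT peak lay at 4 of the 24 genes and a WT-specific peak at 2. The shares of 16.7% for WT and 8.33% for WT-specific peaks were near those of all protein-coding genes, 13.0% and 5.04%. The WT-specific peaks were at Edar, a receptor for ectodysplasin A1, with an intronic peak of 360 bp (chr10:58604836-58605195), and Tnfrsf12a, the receptor for TWEAK. Tnfrsf12a had a KO peak of 336 bp inside the gene, and its WT-specific peak of 421 bp lay 3356 bp outside the gene and was labelled as the 5′ UTR of Cldn6. Of 14 ligands, adaptors and caspases of death receptors, among them Fasl, Tnfsf10, Fadd and Casp8, 3 (21.4%) had a KO peak, against 16.0% of protein-coding genes, and 0 had a WT or WT-specific peak, against 13.0% and 5.04%. Of the 2 PIDDosome partners of Pidd1, Cradd and Casp2, 0 had a WT peak, against 13.0% of protein-coding genes. Cradd had 2 KO peaks, so 1 of these 2 genes had a KO peak, against 16.0%.

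By its WT and WT-specific shares, the mitochondrial arm stood between these lists and the 10 genes. Of its 12 genes, 3 had a KO peak, where 16.0% of protein-coding genes had one. A WT peak lay at 6 of the 12 and a WT-specific peak at 4, namely Bax, Bbc3, Bcl2l11 and Bcl2l1. The WT-specific share was thus 33.3%, against 5.04% of protein-coding genes, and the WT share of 6 in 12 compares with 13.0%. Bax and Bbc3, which encode promoters of mitochondrial apoptosis, had WT-specific peaks of 914 bp and 1957 bp in the promoter class, and Bcl2l11 (Bim) had an intronic peak of 1122 bp. Bcl2l1, which encodes the survival protein Bcl-xL, had 8 KO peaks, and its 3 WT-specific peaks, all intronic, were 198 to 908 bp wide. Over the 4 lists, 13 of 52 genes had a KO peak, against 16.0% of protein-coding genes, 10 (19.2%) had a WT peak, against 13.0%, and 6 (11.5%) had a WT-specific peak, against 5.04%.

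**Figure D4:**
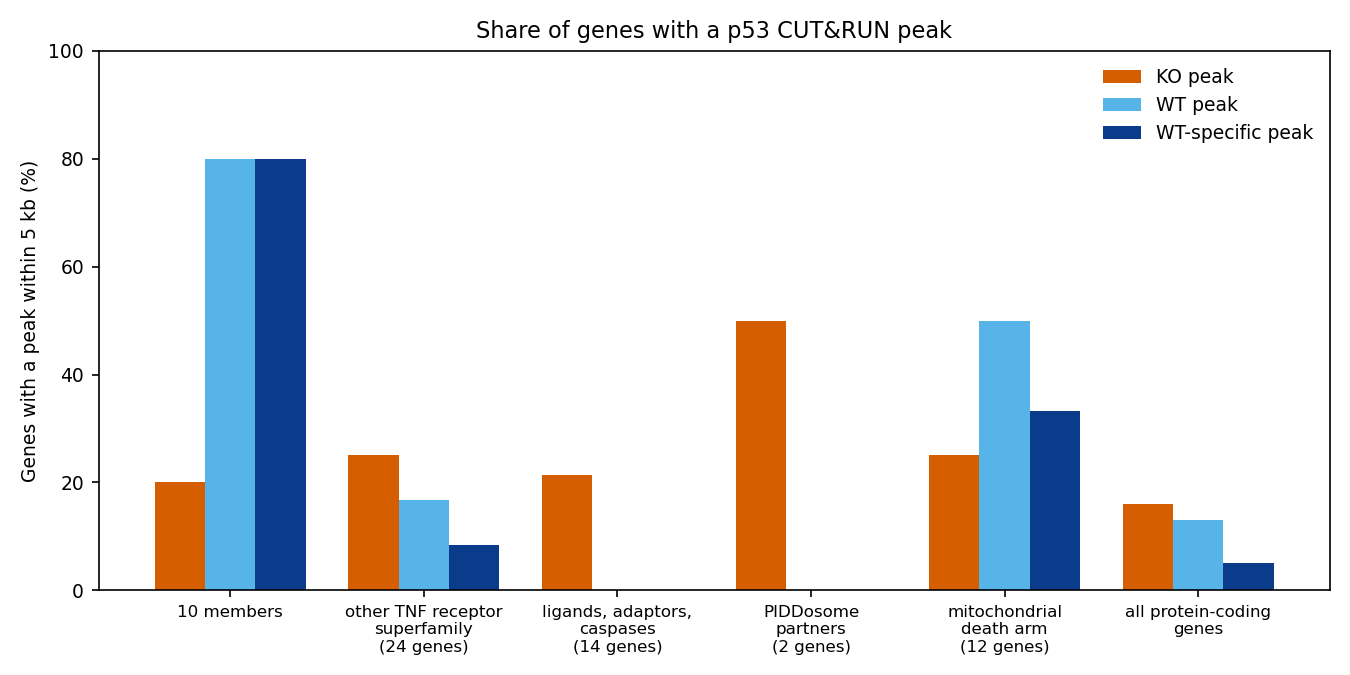
Percent of genes with a KO, WT or WT-specific peak within 5 kb or by label, for the 10 genes, for 4 other lists of the pathway and for all 21900 protein-coding genes. Of the 10 genes, 2 have a KO peak and 8 a WT or WT-specific peak, and the ligands, adaptors and caspases and the PIDDosome partners have a KO bar only.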

How the data were processed

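CUT&RUN libraries with a p53 antibody were made from 2 KO and 2 WT samples of ID8 cells, out of 21 samples in the series. The histone modification and IgG samples were not analysed here. Per the file headers, the deposited lists give chromosome, start and end on mm10, with no score, p-value or read count, so depth is unknown and the values have no other unit. The tools listed in the submitters' processing notes are Bowtie2, fastp, deepTools and MACS2. The sources used here do not give their versions, settings or order, whether peaks were called on pooled reads, or how WT-specific peaks were chosen. Each genotype has 1 list, so no test across samples was possible and none is given.

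Positions were converted from 0-based starts and are printed 1-based. Genes came from RefSeq GRCm38.p6, promoter windows and starts from its promoter table, which is not complete. Where a gene has several starts, the one nearest the peak midpoint was used. Peaks were assigned within 5 kb of the gene span or by deposited label, and lists were compared at 1 bp overlap. Peak and motif counting was tested on simulated data. Computations used Python 3.11.15, numpy 2.4.6, pandas 2.3.3, scipy 1.17.1 and matplotlib 3.10.9. The genes and lists were chosen with earlier results of these data known. Named were all 10 genes, neighbours whose label or span meets one of their peaks, and genes of the 4 other lists with a WT-specific peak. Rplp2 and 4930480K23Rik, which lie near a peak without meeting it, and other genes of those lists were named after their values were seen. Alternatives covered distance, label, width, overlap, start window, repeat coverage and motif mismatches.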

Additional observations from a re-analysis of the deposited data

How the results depend on the processing

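No paired analysis was possible because each genotype has 1 list for its 2 samples, and leaving out a replicate could not be done for the same reason. Of 40 alternatives over 11 results, 32 stayed within 1.5 times of the reported value. With only peaks at least as long as their list's median, 0 and not 2 of the genes had a KO peak, 7 had a WT peak, and 5 and not 8 had a WT-specific peak (Fas, Tnfrsf10b and Pidd1 were lost). Shares of all protein-coding genes under that filter were not computed. With a limit of 50 kb, 5 genes had a KO peak. The median width was 749 bp at receptors when peaks had to carry the gene's label, since the Fas peak then dropped out, and 478 bp at effectors in the WT list. When repeats had to cover 50% of the peak, 1 peak and not 2 had a repeat. With 1 mismatch, 5 and not 2 genes had a p53 half-site in the promoter window. A peak of at least 1200 bp lay at 3 genes and not 5. The alternatives at 20 kb, 800 bp and 1200 bp were chosen after seeing the data.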

Other observations

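Several pathway genes had a KO peak and no WT peak. Only 41.0% of all KO peaks were overlapped by a WT peak, and 16.0% of protein-coding genes had a KO peak. The share of protein-coding genes with a KO peak and no WT peak was not computed. On chromosome 7, next to Tnfrsf23, the related receptor genes Tnfrsf26 and Tnfrsf22 shared a KO peak of 478 bp, 1670 bp outside Tnfrsf26 and 4816 bp outside Tnfrsf22, and a further KO peak of 183 bp lay in Tnfrsf26. Neither overlapped a WT peak. Tnfrsf11a had 2 KO peaks of 199 and 245 bp and no WT peak. Fadd, the adaptor of Fas, had a KO peak of 198 bp, and Cflar, an inhibitor of caspase-8 activation, had 2 of 248 and 309 bp. Mlkl, from the list that holds Fadd and Cflar, had a KO peak of 270 bp, 3321 bp outside the gene. Cradd, described above, also had KO peaks and no WT peak. The cause was not tested, and the genes were named after their values were seen.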
